A study of Rattus norvegicus with 11 samples.

Results

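Arc, the Homer adaptors and the scaffold genes of the postsynaptic density were examined in the medial prefrontal cortex (mPFC) of rats after abstinence from heroin. The set was Arc, Homer1, Homer2, Homer3, Dlg4, Dlg2, Dlgap1, Shank1, Shank2 and Shank3. The genes were chosen with earlier results of these data known. Their probes were taken by the gene name printed in the array files and not by any measured value. By that rule 8 of the 10 genes had a probe, among 35561 distinct names on the array, and these genes held 10 of the 41012 non-control probes. Dlg4 and Dlg2 carry the older names Dlgh4 and Dlgh2 on this array. Their 3 probes were found only through RefSeq accessions and are described beside the others without entering the counts of the 10.

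All rats were male and 4 months old, and the strain is not given in the sources used here. The heroin group (n = 6) had licked a spout for intravenous heroin, then went through 14 days of enforced abstinence and an extinction session in the same chamber without drug, and was killed directly afterwards. The saline group (n = 5) was yoked: each of these rats was infused with saline whenever its heroin partner earned heroin, and had the same abstinence and extinction session. Both groups therefore carried the extinction session, and no group went without it. Each array held the total RNA of 1 rat, labeled with Cy3. The paper describes 6 arrays per group, and no saline rat numbered 1 is among the samples here.

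The postsynaptic density is the protein mesh under excitatory synapses that holds glutamate receptors in place. Dlg4 (PSD-95) and Dlg2 (PSD-93) bind receptors at the membrane, Dlgap1 links them to the Shank proteins beneath, and Homer proteins tie Shank to other proteins of the synapse. Long Homer forms have a coiled coil and join into a lattice. A short form of Homer1, made when neurons are strongly active, lacks the coiled coil and loosens that lattice. Arc is an immediate-early gene, transcribed within minutes of synaptic activity, whose protein promotes removal of AMPA receptors from the synapse.

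Arc and both Homer1 probes were higher in heroin rats by an unadjusted limma p under 0.02 with at least a 1.4-fold change. These were 3 of the 10 probes, beside 2.72% of the 25555 tested probes past the same thresholds in either direction and 1.79% past them and higher in heroin rats. The 2 Homer1 probes belong to 1 gene, which the paper had named as raised in this study, so the count is not independent evidence. The study used these thresholds with an unequal-variance test, by which only Homer1 A_44_P148865 passed and Arc had a p of 0.0750. Of the genes from an earlier extinction study, the paper named homer1 as raised on its arrays but did not name arc. None of the scaffold or linker probes passed. No probe on the array reached an adjusted p under 0.05 in the main limma fit. The smallest was 0.263, while 4723 probes, 4 of the 10 among them, had an unadjusted p under 0.05. The unequal-variance test named in the methods gave 0 probes after adjustment as well, with 4127 at an unadjusted p under 0.05.

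Signals are given in array medians, that is, the processed signal of a probe divided by the 50th percentile of its array, and changes are differences of mean log2 signal, heroin minus saline. Group means printed as signal are arithmetic, so their ratio can differ from the fold given, which is 2 to the power of the log2 change. Of all tested probes 20114 were higher in heroin rats on this scale, and the median tested probe stood at 0.18. Each change is therefore also read against that value. All 13 probes of the set were detected on all 11 arrays and none of their spots was saturated. Array medians were 42.7 to 78.3 in heroin and 58.0 to 83.2 in saline rats, and 28185 to 33835 probes were detected per array. The heroin sample always lay at array position 4 of its scan image and the saline sample at position 3, so position and group cannot be told apart. Marker lists for 8 cell or tissue classes held no gene past both thresholds in limma, beside 2.72% of all tested probes. The 2 excitatory neuron markers on the array, of 5 listed, were both positive. They summed to 20.3 to 47.3 array medians in heroin and 16.5 to 33.7 in saline rats. Both stayed positive after quantile normalization, with a median change of 0.21, beside 0.40 with the 50th percentile as scaling. All 5 interneuron, all 5 astrocyte and all 4 tested microglia markers were also positive, and 1, 2 and 2 of them were after quantile normalization. In the other classes 3 of 5 oligodendrocyte, 3 of 4 endothelium, 1 of 2 blood and 2 of 4 striatum markers tested were positive. After quantile normalization these numbered 0, 1, 1 and 1. The part of any marker class in the results below was not tested. In bulk cortex, a change in the number of cells of a type and in RNA per cell cannot be told apart.

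Bases 1 to 30 of the 60-nucleotide probes for Arc and Homer1 are shown because the results turn on these probes. They are printed 5′ to 3′ as the array files give them, with no base marked.
Arc, A_44_P118724: ctggagatctcaagagtgtggctatcccct
Homer1, A_44_P148865: gcctgtgatattgaagagggttcttttcat
Homer1, A_44_P380835: aacagaagctcattgacaaactaaagtgac
The Arc probe (NM_019361) lies at chr7:112806255-112806314 on the minus strand of build rn3, as the files give it. The files give no position for either Homer1 probe. A_44_P148865 is listed under NM_031707, AB017140, AF093267 and AF093268, and A_44_P380835 under U92079 and AB003726. The longest run the 2 Homer1 probes share is 6 bases, so they read different stretches of Homer1 RNA. The exons these probes match, and whether either reads a single Homer1 form, were not determined.

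The Arc probe was bright, at 437 times the detection limit, and was measured on 10 spots per array. In heroin rats its signal was 112 at the lowest, 135 at the median and 163 at the highest. The saline rats 2 to 6 read 113, 54.2, 107, 121 and 45.8. Saline 3 and 6 were thus far below every other rat, whereas saline 2 and 5 lay inside the heroin range and saline 4 just under it, so the groups overlapped. Means were 134 ± 20.6 in heroin rats and 88.1 ± 35.2 in saline rats (SD, n = 6 and 5). The log2 change was 0.70 (SE 0.24, 95% interval 0.18 to 1.22), a fold of 1.62, with a limma p of 0.0116, an adjusted p of 0.263 and an exact two-sided permutation p of 0.0152. The unequal-variance test of the methods gave Arc a p of 0.0750. The log2 change stood 0.52 above the median tested probe.

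Arc varied more between saline than between heroin rats, with an SD of log2 signal of 0.66 and 0.22. Between the 10 Arc spots of an array it was 0.02 to 0.07, which leaves out extraction, labeling and hybridization. Without saline 6 the Arc change was 0.49 and without saline 3 it was 0.55, and neither passed both thresholds. Leaving out heroin 1, 2 or 3 also ended the call, with changes of 0.67, 0.67 and 0.64.

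**Figure D1:**
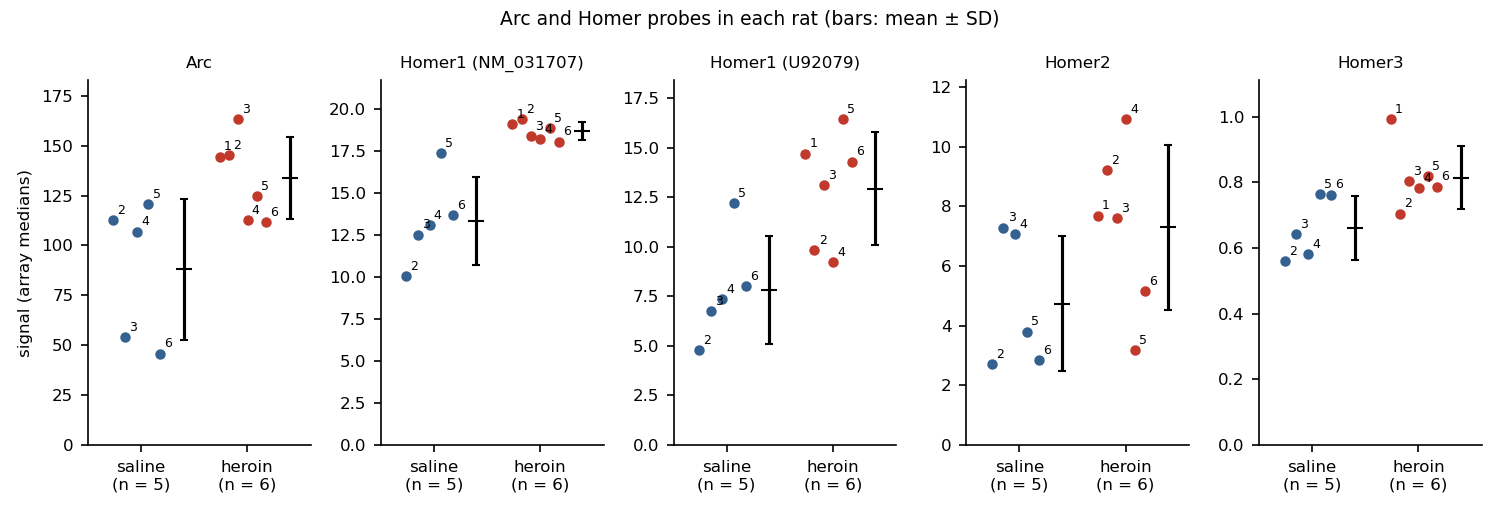
Signal (array medians, linear axes from 0) of the Arc, Homer1, Homer2 and Homer3 probes in each rat, numbered as in the labels, with black bars for group mean ± SD. For Arc, saline 3 and 6 sit at 54.2 and 45.8 and the other saline rats at 107 to 121; for Homer1 probe NM_031707 the heroin rats lie in a narrow band from 18.1 to 19.4.

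Homer1 probe A_44_P148865 separated the groups completely. Heroin rats read 18.1 at the lowest, 18.6 at the median and 19.4 at the highest. Saline rats 2 to 6 read 10.1, 12.5, 13.1, 17.3 and 13.7, all below the lowest heroin rat. Groups without overlap were seen for 1.78% of tested probes. Means were 18.7 ± 0.53 and 13.3 ± 2.63, and the log2 change was 0.51 (SE 0.13, 95% interval 0.22 to 0.79), or 0.32 above the median tested probe. The limma p was 0.00191 (adjusted 0.263) and the exact permutation p 0.00216, the smallest that 462 divisions of the rats allow.

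The SD of log2 signal in this probe was 0.04 between the 6 heroin rats and 0.28 between the saline rats. The fold of 1.42 lies just past the threshold of 1.4. Without saline 2, the lowest rat, the change was 0.41 and was no longer past it; the call stood when any of the other 10 rats was left out. With normexp background correction the change was 0.45, also short of 1.4-fold.

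The other Homer1 probe, A_44_P380835, read 9.24 at the lowest, 13.7 at the median and 16.4 at the highest in heroin rats. This probe carries the accession of the original Homer cDNA, which encoded the short, activity-induced form. Whether the probe reads that form alone was not determined. In saline rats 2 to 6 it read 4.78, 6.76, 7.37, 12.2 and 8.03. Saline 5 lay within the heroin range and the other 4 saline rats below it. Means were 12.9 ± 2.85 and 7.83 ± 2.74. The log2 change was 0.76 (SE 0.22, 95% interval 0.29 to 1.23), 0.58 above the median tested probe, with a limma p of 0.00337, an adjusted p of 0.263 and an exact permutation p of 0.0173. On this scale it was the largest change of the 13 probes, and it was the only call of the set that stood whichever rat was left out, at 0.60 to 0.94. It did not pass with the unequal-variance test of the methods (p of 0.0217), under which A_44_P148865 was the 1 probe of the set that passed. It rests on 1 spot per array.

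The changes of the 2 Homer1 probes did not differ beyond the spread between rats. The log2 ratio of A_44_P148865 to A_44_P380835 does not change when an array is divided by a constant. It was 0.56 ± 0.34 in heroin and 0.81 ± 0.21 in saline rats. The difference was -0.25 (SE 0.17, limma p of 0.151, adjusted p of 0.694 over the 3412 probe pairs tested, exact permutation p of 0.173). Of all such pairs on the array 2.55% passed both thresholds, and none of the 3 pairs in the set did. Over the 11 rats, deviations from the group means in the 2 Homer1 probes correlated at Pearson's r of 0.78, as a description.

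Arc and Homer1 did not order the rats alike. The same correlation was 0.08 between Arc and A_44_P148865 and 0.07 between Arc and A_44_P380835. The saline rats with low Arc, 3 and 6, were neither the lowest nor the highest saline rats in either Homer1 probe, and saline 2, the lowest rat in both Homer1 probes, had Arc at 113. Saline 5 was the highest saline rat in all 3 probes.

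Heroin and saline rats of the same number were scanned in the same image, which allowed a comparison within each of 5 images. The Arc difference was 1.59 and 1.29 in the images of rats 3 and 6, and 0.37, 0.08 and 0.05 in those of rats 2, 4 and 5. All 5 were positive, but 3 were small. Homer1 A_44_P148865 gave 0.12 to 0.95 and A_44_P380835 gave 0.33 to 1.04, positive in 5 of 5 images. Homer3 (0.05 to 0.43) and Dlg4 A_44_P238312 (0.08 to 0.34), which were not past both thresholds, were positive in 5 of 5 as well. The share of all tested probes positive in every image was not determined. With the image as a block, and heroin 1 dropped because it has no partner, the changes were 0.67 for Arc, 0.50 for A_44_P148865 and 0.72 for A_44_P380835.

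**Figure D2:**
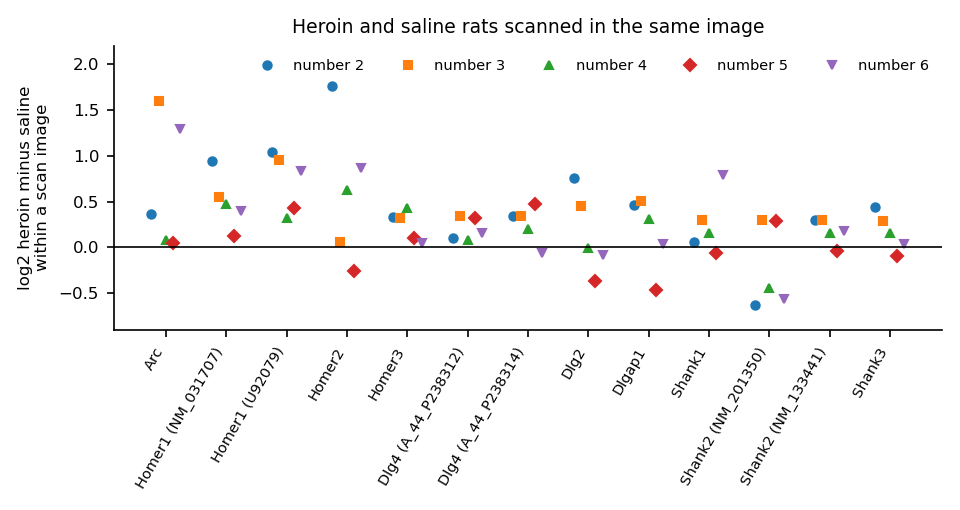
Log2 difference in signal between the heroin and the saline rat of the same scan image, for each probe of the set; marker shapes give the number shared by both rats. Both Homer1 probes, Homer3 and Dlg4 A_44_P238312 are above 0 in all 5 images. Arc is too, with 2 wide differences (1.59 and 1.29) and 3 below 0.4.

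Homer2 and Homer3, the other long-form adaptors, had positive differences that did not pass. Homer2 (A_42_P640641, chr1:137907172-137907231, minus strand) varied widely inside both groups: 3.17 at the lowest, 7.64 at the median and 10.9 at the highest in heroin rats, and 2.71, 7.28, 7.06, 3.80 and 2.84 in saline rats 2 to 6. Its log2 difference was 0.65 (SE 0.33, 95% interval -0.06 to 1.35), beside 0.70 for Arc, with a limma p of 0.0692 and an exact permutation p of 0.136. Within scan images it ran from -0.26 to 1.76. Leaving out heroin 5, the lowest heroin rat, gave 0.87 and moved it past both thresholds.

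Homer3 (A_44_P463822, chr16:19624628-19624687, minus strand) was dim, at 2.92 times the detection limit. It read 0.70 to 0.99 in heroin rats, and 0.56, 0.64, 0.58, 0.76 and 0.76 in saline rats 2 to 6. The groups overlapped through heroin 2. The difference was 0.30 (SE 0.13), a fold of 1.24, with a limma p of 0.0370 and an exact permutation p of 0.0260, so it missed both thresholds. It was 0.09 with the 75th percentile as scaling, 0.12 with normexp background correction and 0.38 after quantile normalization.

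The scaffold and linker genes moved little apart from the array as a whole. Of their 8 probes 7 had log2 differences between 0.20 and 0.25, each within 0.1 of the median tested probe, and the smallest limma p was 0.108. The upper ends of their 95% intervals were 0.51 to 0.59, so a 1.4-fold rise (0.49 on the log2 scale) lay inside each of the 7. The eighth was a dim Shank2 probe.

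Among the membrane-bound scaffolds, Dlg4 read 4.29 to 6.97 in heroin and 3.59 to 6.04 in saline rats on probe A_44_P238314 (chr10:56902480-56903016, 10 spots), a difference of 0.25 (SE 0.16). The other Dlg4 probe, A_44_P238312 (chr10:56903308-56903367), gave 0.21 (SE 0.17). Both have accession NM_019621 and their ratio did not differ between groups beyond the spread (-0.04, SE 0.10, exact permutation p of 0.667). Dlg2 (A_44_P193904, chr1:149352770-149352829) read 4.76 to 6.89 against 3.79 to 6.99, a difference of 0.20 (SE 0.16). Its within-image differences were positive in 2 of 5 images.

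Dlgap1, the linker (A_43_P12348, chr9:110228156-110228215), was 58.1 ± 9.45 in heroin and 50.2 ± 6.79 in saline rats, a difference of 0.20 (SE 0.14). Shank1 (A_44_P289284, chr1:94918064-94918123) was 9.58 ± 1.17 against 8.12 ± 1.56, or 0.25 (SE 0.15). Shank3 (A_42_P715836, chr7:127911834-127911893) read 45.8 to 78.0 against 44.7 to 60.9, or 0.23 (SE 0.15). None of these 3 was separated beyond the spread between rats.

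Shank2 has 2 probes, close together on chromosome 1 and listed under different transcripts, and they differed in sign. A_44_P299282 (NM_133441, chr1:205008364-205008423) gave 0.22 (SE 0.15). A_44_P247745 (NM_201350, chr1:205005382-205005441) gave -0.15 (SE 0.21), the only negative value of the set. The latter was dim, at 2.52 times the detection limit, with 0.50 to 0.74 in heroin and 0.41 to 1.04 in saline rats, and without saline 2 its difference was 0.02. The difference between the 2 probes was -0.37 (SE 0.29, limma p of 0.237, exact permutation p of 0.307).

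**Figure D3:**
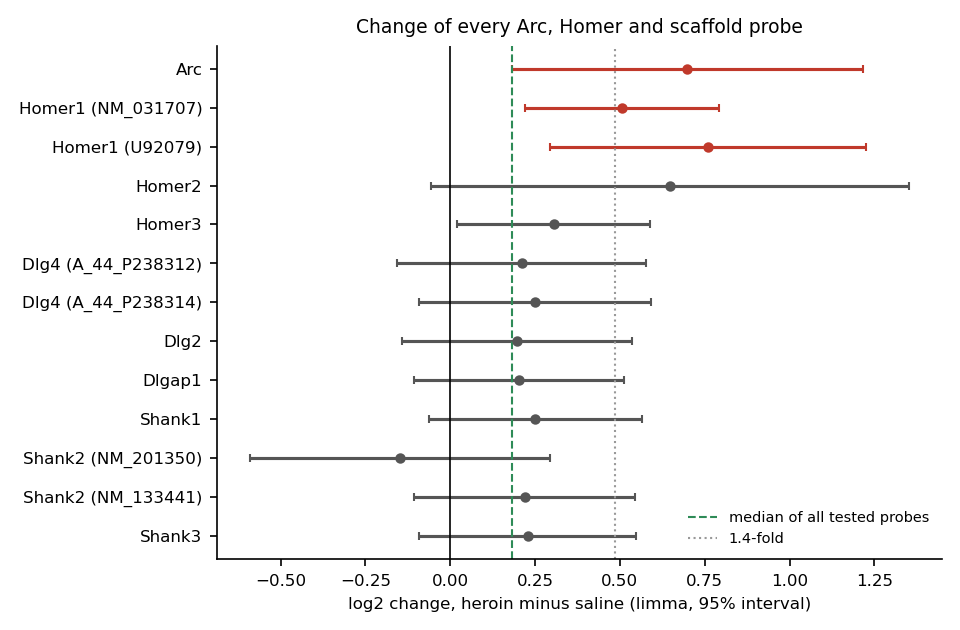
Log2 change, heroin minus saline, with limma's 95% interval for all 13 probes (n = 6 and 5); red marks probes past both thresholds, the dashed line is the median of all tested probes at 0.18 and the dotted line 1.4-fold. Arc and both Homer1 probes stand to the right, and 7 of the 8 scaffold and linker probes sit beside the dashed line.

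The scaling of the arrays set how many calls were made. Scaling to the 75th percentile, to the median of detected probes or by quantiles moved the median tested probe to -0.03, -0.01 and 0.01. Arc then had changes of 0.48, 0.51 and 0.45, and Homer1 A_44_P148865 0.29, 0.32 and 0.26, and neither passed both thresholds. Homer1 A_44_P380835 had 0.54, 0.57 and 0.53 and passed under all 3. Under quantile normalization Shank3, Dlgap1, Dlg2 and Shank2 A_44_P299282 were just below 0, between -0.01 and -0.04, while Shank1 and both Dlg4 probes were between 0.02 and 0.03.

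**Figure D4:**
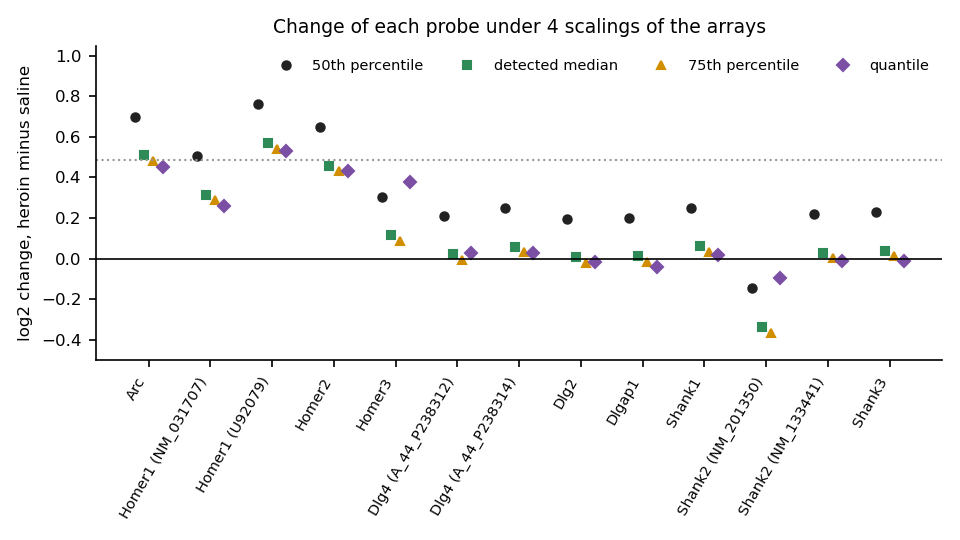
Log2 change of each probe under 4 scalings of the arrays, with a dotted line at 1.4-fold. Arc and the Homer1 probes stay above 0 under all 4, Homer1 U92079 above the dotted line in each, and all scaffold probes but the dim Shank2 NM_201350 move from between 0.20 and 0.25 to near 0 once arrays are not scaled to the 50th percentile.

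Of 41 other listed genes of the postsynaptic scaffold, 36 were on the array and tested. None passed both thresholds in limma, beside 2.72% of all tested probes, and a count of 0 among 36 is near that share. None passed with the unequal-variance test of the methods either, beside 308 of the 25555 tested probes. An unadjusted limma p under 0.05 was seen for 10 (27.8%), beside 18.5% of all tested probes. Their median change was 0.24, beside 0.18 for all tested probes, and 34 of the 36 were positive; after quantile normalization the median was 0.03 with 20 positive. The smallest p belonged to Dlgap4, a relative of Dlgap1, at 0.40 (SE 0.14, limma p of 0.0125, adjusted 0.263). Next were Abi2, an actin regulator, at 0.34, Sorbs2, an adaptor of the actin cytoskeleton, at 0.33, and Dbn1, the actin-binding drebrin of dendritic spines, at 0.33.

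Proteins known to bind Arc or Homer were listed as 15 genes, of which 13 were tested. Trpc1, a cation channel bound by Homer, was past both thresholds at 0.50 (limma p of 0.0150, adjusted 0.263), just beyond the fold threshold. It was the 1 call among the 13, beside 2.72% of all tested probes past both thresholds. Of the 13, 2 (15.4%) had an unadjusted limma p under 0.05, beside 18.5% of all tested probes. Camk2b, a kinase subunit that binds Arc, had a difference of 0.25. The median was 0.25, and 0.00 after quantile normalization with 6 of 13 positive. No binding partner was past both thresholds after quantile normalization, nor when heroin 3 or saline 2, 3, 4 or 6 was left out.

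Of 24 listed activity-regulated genes 22 were tested, and 7 passed both thresholds, all higher in heroin rats: Nr4a3, Bdnf, Egr1, Egr4, Egr2, Ptgs2 and Snf1lk (Sik1). Of all tested probes 1.79% were past both thresholds and higher in heroin rats. The list had a median change of 0.46 with 21 positive. After quantile normalization the median was 0.29 with 20 positive. The count was 3 with the 75th percentile and 4 with quantiles or the median of detected probes. The last 3 are named after their values were seen. Several of these genes were singled out by the study on these same arrays, so their direction is not independent evidence. Nr4a3, an orphan nuclear receptor, was 25.4 ± 1.85 against 16.2 ± 3.21, a change of 0.67. Bdnf, a neurotrophin, changed by 0.90, and the zinc-finger factors Egr1 and Egr4 by 0.66 and 0.87.

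**Figure D5:**
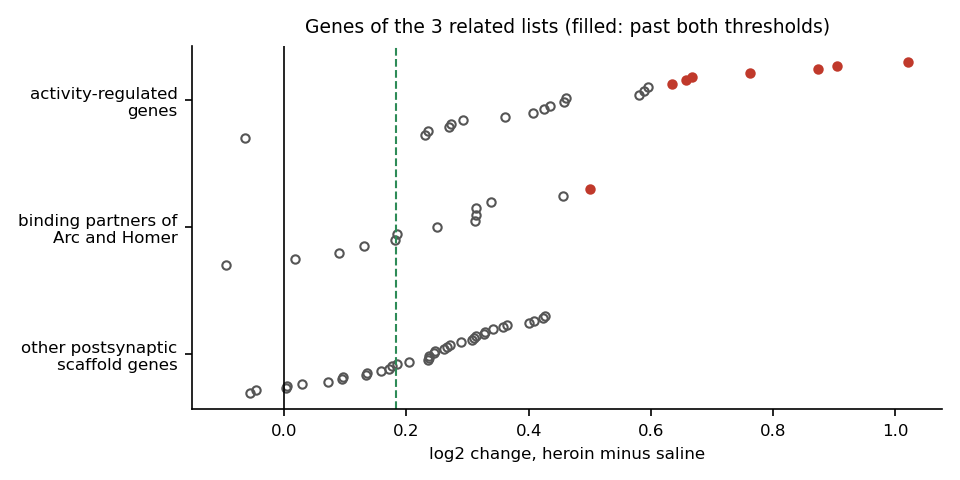
Log2 change, heroin minus saline, of each tested gene in the 3 lists, sorted within a list, with filled points past both thresholds and a dashed line at the median of all tested probes. Of the activity-regulated genes 7 are filled, of the binding partners 1, and of the other scaffold genes 0.

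The 2 saline rats with low Arc were also the lowest saline rats in part of the activity-regulated list. Saline 3 and 6 were the 2 lowest of the 5 in 8 of the 21 genes with a value in every saline rat (38.1%): Fos, Junb, Egr1, Egr2, Nr4a1, Ier2, Per1 and Snf1lk. The same pair was lowest in 11.7% of all tested probes with such values, and in 1 of the 12 other probes of the set. This count, and the naming of these genes, came after the Arc values were seen and are a description. Fos, an AP-1 subunit, read 16.9, 6.84, 8.43, 9.01 and 4.76 in saline rats 2 to 6. Nr4a1, an orphan nuclear receptor, read 195, 69.6, 109, 126 and 57.2. In Nr4a3 the 2 lowest saline rats were 2 and 4, and in Bdnf they were 2 and 3.

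Genes whose deviations from the group means over the 11 rats were most like those of Arc were Stk25 (Pearson's r of 0.94), Ramp1 (0.94), Eno1 (0.92) and Casp9 (0.90). For Homer1 A_44_P148865 they were Ncl (0.98), Sucla2 (0.98), Plcb4 (0.97) and Ptp4a1 (0.96). These are the highest of 25555 probes over few rats and carry no test. After quantile normalization Ramp1 had 0.59 with Arc and Ncl 0.37 with Homer1, so both likenesses leaned on the scaling, whereas Sucla2 and Plcb4 stayed at 0.92.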

How the data were processed

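Probe intensity was the background-subtracted processed signal the authors deposited, made by Feature Extraction 9.5.1.1 per the file headers. The authors also deposited a relative expression ratio per probe, used as an alternative. Flags and annotation, deposited by the authors under other columns, gave detection, spots to leave out (99 to 231 per array) and names. Signals under 5 were set to 5, spots of a probe averaged, and each array divided by its 50th percentile. Probes detected on all 11 arrays with a usable spot on at least 2 arrays per group were compared on the log2 scale with limma 3.58.1 under R 4.3.3 (two-sided). P-values were adjusted by Benjamini-Hochberg across 25555 probes. Detection required at least 0.5 of the spots of a probe to be well above background. Exact permutation tests used all 462 divisions of the rats. The model was tested on simulated data. The precision is limited by the number of arrays. Nothing states that same-numbered rats were partners. Same-numbered deviations correlated at -0.24 to 0.38 in 5 pairs, which are too few to decide whether they were. The unpaired fit is the main one, and a fit with the shared number as a block is given as an alternative. Members and lists were chosen with earlier results of these data known. Named list genes are the 4 with the smallest limma p in each list and, as likeness, the 4 genes most correlated with Arc and with Homer1; a list gene counts by its brightest tested probe. Some of the genes this rule names among the binding partners are not reported here.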

Additional observations from a re-analysis of the deposited data

How the results depend on the processing

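Of 25 alternatives, 4 gave 1 probe of the set past both thresholds instead of 3: quantile normalization, scaling to the 75th percentile or to the median of detected probes, and the methods' test. The probe was Homer1 A_44_P380835 under the 3 scalings and Homer1 A_44_P148865 under the methods' test. Arc kept its direction in all 25, but was not past both with quantiles (0.45), the 75th percentile (0.48), detected probes (0.51) or the methods' test (0.70). Leaving out 1 rat gave Arc 0.49 to 0.84, 2 to 4 calls in the set, 0 to 2 among other scaffold genes (1 without heroin 5, 2 without heroin 6 or saline 5), 0 to 2 among binding partners and 6 to 11 in the activity-regulated list (11 without saline 2). Array weights gave 6 other scaffold and 16 activity-regulated genes, and 8425 of the 25555 tested probes at an adjusted limma p under 0.05. In the set, Arc and both Homer1 probes then had an adjusted limma p of 0.0185 and remained the 3 calls. Homer3 (0.033), Shank3 (0.026), Dlgap1 (0.030) and Dlg2 (0.039) were also under 0.05 but short of 1.4-fold. Binding partners past both numbered 0 with quantiles, the 75th percentile, detected probes, normexp, no detection filter and the methods' test. Activity-regulated genes numbered 3 with the 75th percentile and 4 with quantiles or detected probes.

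The replicate block, which is also the scan image block, gave 0.67 for Arc, 2 binding partners and the same number of calls in the set, 3. In 2 of 5 pairs the saline rat correlated best with the heroin rat of its number. Over all probes, 694 past both became 457 with quantiles, 126 with normexp, 308 with the methods' test, 1560 with no detection filter, 1067 with detection in 1 group, 2488 with array weights, 343 without saline 2, 393 without saline 3 and 2352 without saline 5.

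Signs turned for Dlg4 A_44_P238312 (-0.0070), Dlg2 (-0.021) and Dlgap1 (-0.016) with the 75th percentile, and for Dlg2 (-0.018), Dlgap1 (-0.042), Shank2 A_44_P299282 (-0.012) and Shank3 (-0.014) with quantiles. Leaving out 1 rat gave Shank2 A_44_P247745 -0.32 to 0.016 (positive without saline 2) and the Dlg4 probe pair -0.086 to 0.0096 (positive without heroin 2). The cause was not tested. Low signal over background limits Homer3 and Shank2 A_44_P247745.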
